A study of Mus musculus with 17 samples.

Results

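Cytochrome P450 genes other than the best-known drug, bile acid and sterol enzymes of mouse liver were described here after a high-fat diet (HFD) and a control diet (CD). The members were all genes whose symbol began with Cyp and a family number, leaving out every Cyp4a gene and Cyp2a4, Cyp2a5, Cyp2b9, Cyp2b10, Cyp2c29, Cyp2c55, Cyp2e1, Cyp2f2, Cyp3a11, Cyp3a13, Cyp7a1, Cyp7b1, Cyp8b1, Cyp17a1, Cyp27a1 and Cyp51. This gave 58 genes. Of these, 45 were among the 12334 genes of the RNA table, which held 67 P450 genes in all. Overlapping with these, 46 of the 58 were the gene nearest to 1 or more of 122 regions carrying acetylated lysine 9 of histone H3 (H3K9ac, a mark of active promoters and enhancers), out of 57499 regions. Both tables held 33 of the genes, 12 were in the RNA table only and 13 had an H3K9ac region only.

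Livers came from C57BL/6 mice, a common inbred laboratory strain, kept for 10 weeks on HFD, with 60% of calories from fat, or on CD, with 18%. Polyadenylated RNA was sequenced in 4 HFD and 4 CD libraries, and H3K9ac chromatin was immunoprecipitated in 3 HFD and 3 CD libraries. The labels name no transgene or drug, and they do not give the sex of the mice, the hour of collection or the feeding state. Libraries carry letters, A to D, and p-values measure the spread between these libraries.

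P450 enzymes are heme proteins that add oxygen to their substrates, with electrons passed on from NADPH, in liver mainly by the reductase Por in the endoplasmic reticulum. The family number groups them by sequence. Families 1 to 3 hold most drug-metabolising enzymes and epoxygenases of arachidonic acid, family 4 hydroxylates the ends of fatty acids and eicosanoids, family 26 breaks down retinoic acid, and families 39 and 46 act on cholesterol and its oxidised forms. In mouse liver several Cyp2c, Cyp2d and Cyp3a genes differ in level between females and males, through the rhythm of growth hormone release.

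The sequences of 5 promoters are shown because the results below turn on these genes. Each runs from 250 bases before to 50 bases after the start site annotated by RefSeq (build GRCm38.p6, which mm10 corresponds to), on the strand of the gene. The promoter of Cyp26a1, at chr19:37697558-37697857 on the plus strand, lay inside an H3K9ac region that fell under HFD, and capitals mark a retinoic acid response element. The other 4 belong to neighbours with similar promoters on the minus strand of chromosome 19. Of these, Cyp2c40 and Cyp2c69 fell in RNA and Cyp2c67 and Cyp2c68 did not pass the test. They are at chr19:39812765-39813064 for Cyp2c40, chr19:39886720-39887019 for Cyp2c69, chr19:39648993-39649292 for Cyp2c67 and chr19:39741052-39741351 for Cyp2c68, and capitals mark TATAAA.
Cyp26a1: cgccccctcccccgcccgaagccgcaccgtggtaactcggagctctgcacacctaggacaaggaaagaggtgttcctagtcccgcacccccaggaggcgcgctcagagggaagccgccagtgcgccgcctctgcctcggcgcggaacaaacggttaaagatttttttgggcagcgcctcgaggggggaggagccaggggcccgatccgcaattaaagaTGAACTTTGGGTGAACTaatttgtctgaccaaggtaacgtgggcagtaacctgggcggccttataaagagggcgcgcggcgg
Cyp2c40: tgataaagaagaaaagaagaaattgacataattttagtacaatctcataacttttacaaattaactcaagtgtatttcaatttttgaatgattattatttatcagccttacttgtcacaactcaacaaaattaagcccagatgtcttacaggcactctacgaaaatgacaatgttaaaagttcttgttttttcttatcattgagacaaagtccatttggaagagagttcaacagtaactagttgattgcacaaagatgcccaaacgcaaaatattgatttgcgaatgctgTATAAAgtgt
Cyp2c69: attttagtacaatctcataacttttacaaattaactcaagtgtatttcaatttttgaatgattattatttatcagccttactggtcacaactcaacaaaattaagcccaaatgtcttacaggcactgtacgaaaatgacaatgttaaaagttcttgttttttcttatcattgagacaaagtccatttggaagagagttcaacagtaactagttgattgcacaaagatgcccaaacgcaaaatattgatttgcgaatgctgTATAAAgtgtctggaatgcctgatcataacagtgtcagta
Cyp2c67: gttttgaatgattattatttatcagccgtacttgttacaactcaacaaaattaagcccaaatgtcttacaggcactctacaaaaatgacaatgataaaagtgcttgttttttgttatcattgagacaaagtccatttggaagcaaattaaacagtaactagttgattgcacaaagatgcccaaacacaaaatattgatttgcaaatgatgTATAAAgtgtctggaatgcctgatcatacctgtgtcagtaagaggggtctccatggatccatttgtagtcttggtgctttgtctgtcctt
Cyp2c68: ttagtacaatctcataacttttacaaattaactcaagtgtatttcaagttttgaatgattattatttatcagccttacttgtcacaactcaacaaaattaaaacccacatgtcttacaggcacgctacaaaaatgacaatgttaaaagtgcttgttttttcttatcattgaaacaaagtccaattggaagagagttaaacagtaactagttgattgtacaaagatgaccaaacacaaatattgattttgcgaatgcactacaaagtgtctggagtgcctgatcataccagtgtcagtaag

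The element in the Cyp26a1 promoter is the half-site AGTTCA repeated after 5 bases, read on the minus strand, and it lies from 32 to 16 bases upstream of the annotated start. On both strands of 32851 mouse promoters of the same length, this motif was in 8 (0.0244%), and Cyp26a1 was the 1 member promoter that held it. TATAAA on the sense strand was in 8.32% of those promoters and in 12 of 49 promoter entries (24.5%), which covered 43 of the 58 members. Cyp2c40 and Cyp2c69 shared 267 of 270 aligned promoter bases (98.9%). Against Cyp2c67 and Cyp2c68, Cyp2c40 was 93.6% and 93.3% identical over 219 and 269 aligned positions. TATAAA began 40 bases after the annotated start of Cyp2c40, 10 bases after that of Cyp2c69 and 40 bases before that of Cyp2c67, and these letters are not in the window of Cyp2c68. In the Cyp26a1 promoter TATAAA, not in capitals, began 29 bases after the annotated start. A match is a description of the letters only.

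Total counts were 31802893 to 37596560 per RNA library and 9255635 to 12149497 per H3K9ac library. Hepatocyte markers summed to 110400 to 129400 CPM (read counts scaled to library size) in HFD and 99170 to 112700 CPM in CD libraries, with Ass1 at a mean of 2.69 CPM in HFD and 1.41 CPM in CD livers. Bile duct markers summed to 57.4 to 83.7 CPM in HFD and 84.6 to 100.5 CPM in CD livers, and 1 of 6 measured passed the test, lower in HFD. Sinusoidal endothelial and stellate cell markers were lowest in HFD A and HFD B: endothelial sums were 160.4, 184.6, 310.8 and 314.5 CPM in HFD A to D against 196.0, 204.0, 265.8 and 207.7 CPM in CD A to D. Of the adrenal list, Cyp11a1, Cyp11b1 and Mc2r were among 5 of 7 markers not listed in the RNA table, and of the kidney list 4 of 5 were not listed. Of the pancreas list 5 of 6 were not listed, and the 1 measured, Cela1, passed the test with 34.5 CPM in HFD and 19.2 CPM in CD livers (log2 change 0.84, edgeR adjusted p = 0.0115). Kupffer cell markers summed to 178.4 to 472.6 CPM in HFD and 230.7 to 336.6 CPM in CD livers, and none of the 12 passed (0 with edgeR, 0 with an unadjusted p under 0.05, 0 with DESeq2). The part that cell composition has in the values below was not tested, and in bulk tissue fewer cells of a type and less RNA per cell cannot be told apart.

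In RNA, 8 of the 45 members passed the test between the diets (edgeR quasi-likelihood test, Benjamini-Hochberg adjusted p under 0.05 over all genes), 3 higher and 5 lower in HFD. Over all genes tested, 7.27% passed, with 3.63% higher and 3.64% lower in HFD. The member share was 17.8%. HFD and CD libraries did not overlap for 14 members (31.1%), against 14.3% of all genes. The median log2 change of the 45 was -0.08, against 0.01 over all genes. Together the members took 1.002% ± 0.0455 of all counts in HFD and 1.11% ± 0.0413 in CD livers (SD, n = 4 each). The 37 members that did not pass had log2 changes between -1.42 and 0.82. Of the 45, 15 had a mean deposited FPKM (reads scaled to transcript length and library size) of 100 or more, and 10 were under 1. Of the 8 that passed, Cyp2c37 and Cyp4f14 averaged 173.5 and 123.4 FPKM, and the rest averaged only 0.579 to 6.42 FPKM.

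**Figure D1:**
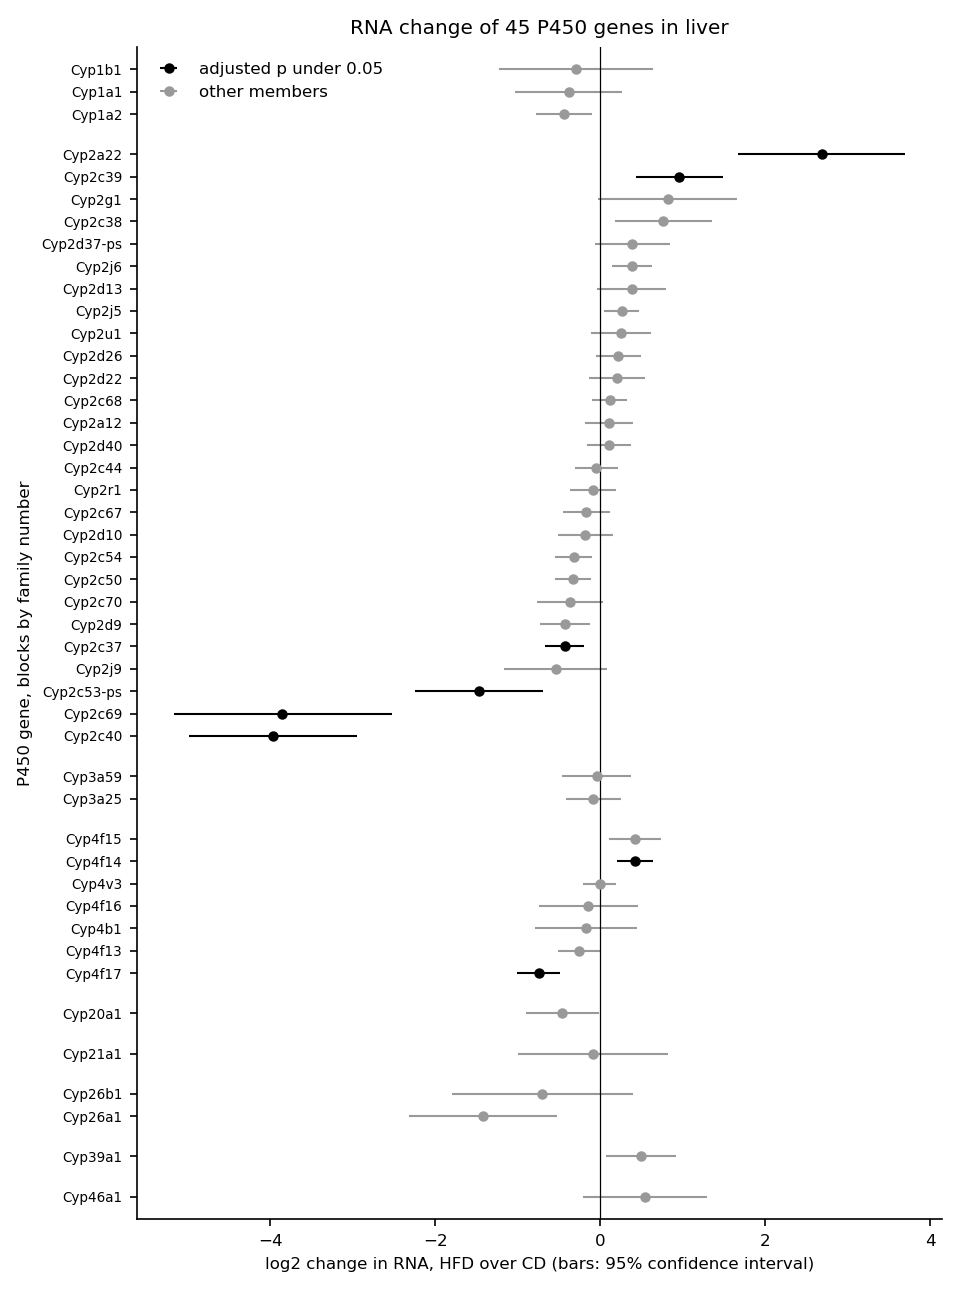
Each point is the log2 change in RNA of 1 P450 gene, HFD over CD (x axis), with its 95% confidence interval, in blocks by family number from top to bottom (n = 4 libraries per diet). The 8 genes past the threshold are black: Cyp2c40 and Cyp2c69 lie near -4 and Cyp2a22 lies furthest to the right at 2.68.

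Cyp2c40 and Cyp2c69 were far lower under HFD. Both are known from mouse liver as female-biased genes, and Cyp2c40 acts on arachidonic acid. Cyp2c40 had 0.488, 0.542, 0.335 and 1.004 CPM in HFD A to D, against 16.1, 10.3, 6.56 and 4.28 CPM in CD A to D. Cyp2c69 had 0.172, 0.573, 0.0609 and 0.456 CPM in HFD A to D, against 7.17, 6.61, 2.76 and 1.82 CPM in CD A to D. Every HFD library was below every CD library for both genes, and the CD livers ranked alike for both, with A and B high and C and D low. The log2 changes were -3.97 ± 0.46 for Cyp2c40 (SE; adjusted p = 0.000684) and -3.85 ± 0.60 for Cyp2c69 (adjusted p = 0.00339, edgeR), or 15.6-fold and 14.4-fold lower in HFD. In reads, the HFD libraries held 79 in all for Cyp2c40 and 42 for Cyp2c69, and the CD libraries 1267 and 632.

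Their neighbours Cyp2c67 and Cyp2c68, with similar promoters, were much more abundant and showed no such difference. Cyp2c67 averaged 331 ± 47.5 CPM in HFD and 373 ± 46.6 CPM in CD livers, and Cyp2c68 averaged 172 ± 4.41 CPM in HFD and 159 ± 16.6 CPM in CD livers (SD, n = 4 each). Their log2 changes were -0.17 (95% confidence interval -0.46 to 0.11) and 0.11 (-0.10 to 0.33), with edgeR adjusted p of 0.535 and 0.594. The counting could split reads between these 4 genes, so each gene's value is uncertain. Summed, the 4 genes had 504.0 ± 44.7 CPM in HFD and 545.7 ± 68.5 CPM in CD livers (SD, n = 4 each), with overlap. Cyp2c40 and Cyp2c69 together made up only 6.1 to 23.2 CPM of this in CD libraries. The list of female-biased genes used here held 6 genes, and only Cyp2c40 and Cyp2c69 of it were measured. Cyp3a16, Cyp3a41a, Cyp3a41b and Cyp3a44 were not listed in the RNA table. This short list is not a full account of sex bias among the members.

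The 11 member Cyp2c genes of chromosome 19 between positions 39229254 and 40187286 included 5 that passed the test, 4 lower and 1 higher in HFD. Genes left out by the rule, such as Cyp2c29, are not counted here. Cyp2c37, which oxidises arachidonic acid, had 293, 290, 272 and 224 CPM in HFD A to D, against 360, 366, 388 and 339 CPM in CD A to D. Its libraries did not overlap, and it fell by 0.43 ± 0.11 on the log2 scale (edgeR adjusted p = 0.0381). Cyp2c53-ps, annotated as a pseudogene, had 0.603, 0.452, 0.274 and 0.304 CPM in HFD A to D, against 1.18, 0.613, 1.48 and 1.30 CPM in CD A to D. The highest HFD value, in A, lay just under the lowest CD value, in B, and the log2 change was -1.47 ± 0.35 (edgeR adjusted p = 0.0307).

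Cyp2c39, a retinoic acid hydroxylase, rose. It had 2.07, 2.86, 1.65 and 1.95 CPM in HFD A to D, against 0.776, 1.31, 1.10 and 1.18 CPM in CD A to D, with no overlap, and its log2 change was 0.96 ± 0.24 (edgeR adjusted p = 0.0371). The next member genes of the cluster did not pass. Cyp2c50 and Cyp2c54, arachidonic acid epoxygenases, had log2 changes of -0.33 and -0.32 without overlap (adjusted p = 0.0731 and 0.0899, edgeR). Cyp2c38 had 0.77 with overlap (adjusted p = 0.124, edgeR). With DESeq2, Cyp2c50, Cyp2c54 and Cyp2c38 passed. Cyp2c50 and Cyp2c54 also passed when only genes at or above the median level were tested. Cyp2c50 passed with library totals and in the authors' deposited table as well. Cyp2c70, which makes muricholic acids in mouse liver, had 483, 599, 529 and 616 CPM in HFD A to D, against 1008, 580, 706 and 568 CPM in CD A to D. CD A stood highest, the diets overlapped, and the log2 change of -0.36 did not pass (adjusted p = 0.298). Without CD A it was -0.15.

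The calls of Cyp2c37, Cyp2c53-ps and Cyp2c39 rested on most of the libraries: leaving out 1 library at a time, Cyp2c37 passed in 1 of 8 fits (edgeR adjusted p 0.0239 to 0.116), Cyp2c53-ps in 2 of 8 (0.0164 to 0.091) and Cyp2c39 in 2 of 8 (0.0338 to 0.135). Cyp2c39 also missed the threshold with counts scaled by library totals alone. Cyp2c40 and Cyp2c69 passed in all 8, with log2 changes of -4.34 to -3.57 and -4.32 to -3.52.

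Cyp2a22, a neighbour of the other Cyp2a genes on chromosome 7, had the largest rise of the members. It had 2.21, 4.01, 1.37 and 1.58 CPM in HFD A to D, against 0.248, 0.213, 0.267 and 0.698 CPM in CD A to D. All HFD libraries lay above all CD libraries, of which D was the highest. The log2 change was 2.68 ± 0.46 (edgeR adjusted p = 0.00586), or 6.42-fold, on 307 reads in HFD and 48 in CD libraries, and it held in each of 8 fits without 1 library (2.27 to 3.23). Cyp2a12, a steroid and bile acid hydroxylase with far higher counts, had 671, 598, 537 and 464 CPM in HFD A to D, against 598, 465, 512 and 534 CPM in CD A to D. The diets overlapped, and the log2 change was 0.11 (95% confidence interval -0.18 to 0.40, adjusted p = 0.738).

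**Figure D2:**
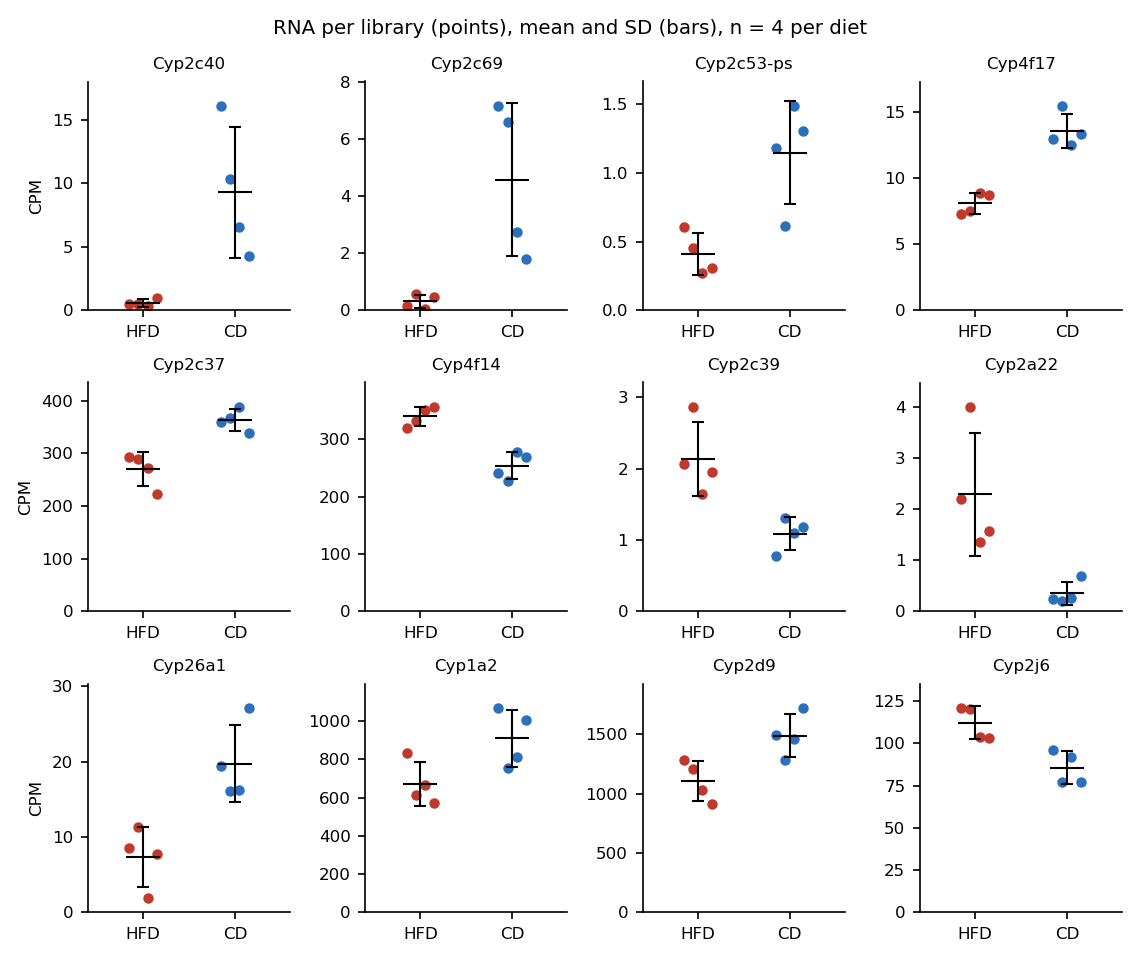
RNA level in CPM (y axis, from 0) of the 8 genes past the threshold and of Cyp26a1, Cyp1a2, Cyp2d9 and Cyp2j6, which did not pass. Points are libraries, HFD (red) left of CD (blue), with the mean and SD (n = 4 per diet); in the 8 genes past the threshold no HFD point reaches a CD point.

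Cyp2d9, Cyp2d26 and Cyp2d10 were among the 4 members with the highest mean FPKM, with Cyp1a2. The RNA of the Cyp2d genes did not pass the test (0 of 7 with edgeR, 1 with an unadjusted p under 0.05, and 1 with DESeq2). Cyp2d9, the testosterone 16-alpha hydroxylase known as a male-biased gene of mouse liver, had the highest mean level of all members, 787 FPKM. It had 1286, 1211, 1030 and 912 CPM in HFD A to D, against 1494, 1281, 1464 and 1722 CPM in CD A to D. Only the highest HFD library, A, and the lowest CD library, B, overlapped, and the log2 change was -0.43 (95% confidence interval -0.73 to -0.12, adjusted p = 0.0992, edgeR). Of 8 fits without 1 library, only that without HFD A passed (edgeR adjusted p = 0.0399, highest 0.235). The gene also passed with DESeq2, with library totals and in the authors' deposited table. Cyp2d26 had 1109, 959, 869 and 799 CPM in HFD A to D, against 823, 721, 775 and 891 CPM in CD A to D, and Cyp2d10 had 794, 595, 530 and 518 CPM in HFD A to D, against 742, 587, 666 and 767 CPM in CD A to D. In both genes the diets overlapped and HFD A was highest. The 7 Cyp2d genes ranged from -0.43 to 0.39 in log2 change. Whether reads are shared between Cyp2d genes was not tested.

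H3K9ac around Cyp2d9 fell at 4 of the 7 regions nearest to it. Over all member regions, 9 of 122 passed the test (7.38%), 1 higher and 8 lower in HFD, against 2.39% of all regions, with 0.835% higher and 1.55% lower. The diets did not overlap at 25 member regions (20.5%), against 15.4% of all regions. The region 2953 bases inside Cyp2d9, in an intron at chr15:82454695-82455964, had 3.75, 4.34 and 4.94 CPM in HFD A, B and D, against 9.11, 7.17 and 11.8 CPM in CD A, C and D. The region 8813 bases upstream, at chr15:82443340-82443786, had 2.64, 2.35 and 3.19 CPM in HFD A, B and D, against 5.45, 5.83 and 6.83 CPM in CD A, C and D. Each HFD library was below each CD library in both, and the log2 changes were -1.11 ± 0.20 and -1.15 ± 0.22 (SE; adjusted p = 0.000187 and 0.00052, edgeR).

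The fall at the promoter region of Cyp2d9, centred 650 bases past the start, was smaller. It had 40.5, 40.3 and 29.3 CPM in HFD A, B and D, against 51.3, 48.4 and 44.2 CPM in CD A, C and D, a log2 change of -0.38 ± 0.10 (edgeR adjusted p = 0.0304). The region 13931 bases upstream had 2.98, 3.82 and 2.53 CPM in HFD A, B and D, against 5.81, 4.75 and 6.83 CPM in CD A, C and D, a log2 change of -0.88 ± 0.22 (adjusted p = 0.0152). Both showed no overlap, but they passed in only 2 and 3 of 6 fits without 1 library, and neither passed with DESeq2. The promoter region also missed the threshold with library totals and with the median filter. The intron region and the one 8813 bases upstream passed in all 6 fits and with DESeq2. All 7 Cyp2d9 regions had a negative log2 change, between -1.15 and -0.38. The 25 regions of the 8 other Cyp2d genes ranged from -0.50 to 0.51, with a median of 0.02; 0 of them passed with edgeR or DESeq2, and 2 had an unadjusted p under 0.05. In the edgeR fit without HFD D, 1 of the 25 passed, 2414 bases past the start of Cyp2d26. The difference between Cyp2d9 and its neighbours was not itself tested.

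**Figure D3:**
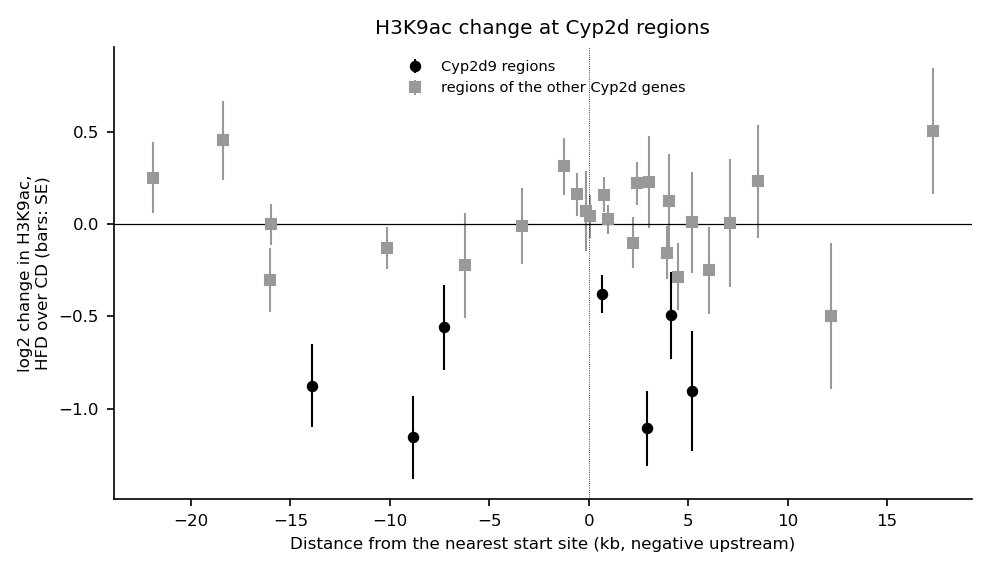
Log2 change in H3K9ac, HFD over CD, with its SE (y axis) of the 32 regions nearest to a Cyp2d gene, against their distance from that gene's start in kb (x axis, negative upstream; n = 3 libraries per diet). The 7 Cyp2d9 regions (black) all lie below 0, down to -1.15, and the 25 others (grey) lie on both sides of 0.

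Cyp26a1 and Cyp26b1 break down retinoic acid. H3K9ac fell under HFD at the 1 region of Cyp26a1 and at 1 of the 4 regions of Cyp26b1. The Cyp26a1 promoter region, 4370 bases long at chr19:37695161-37699530, had 55.2, 62.0 and 61.4 CPM in HFD A, B and D, against 92.8, 102 and 99.2 CPM in CD A, C and D. The diets lay far apart next to the spread within each, and the log2 change was -0.72 ± 0.08 (edgeR adjusted p = 4.95e-09). It passed in all 6 fits without 1 library, with log2 changes of -0.76 to -0.67. This region holds the promoter sequence shown above. The long intron region of Cyp26b1, centred 7521 bases past its start, had 34.8, 40.0 and 42.3 CPM in HFD A, B and D, against 54.4, 51.2 and 45.1 CPM in CD A, C and D. It showed no overlap and a log2 change of -0.37 ± 0.10 (adjusted p = 0.025). It passed in 2 of 6 fits without 1 library and missed the threshold with DESeq2 (adjusted p = 0.0718) and with the median filter (0.0512). Its 3 other regions had log2 changes of -0.78, -0.16 and -0.27 and did not pass (adjusted p 0.44 to 0.898).

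The RNA of neither gene passed the test. Cyp26a1 had 8.56, 11.3, 1.86 and 7.73 CPM in HFD A to D, against 19.4, 16.2, 16.3 and 27.1 CPM in CD A to D. No HFD library reached a CD library, HFD C was the lowest, and the log2 change of -1.42 ± 0.41 just missed the threshold (95% confidence interval -2.32 to -0.52, adjusted p = 0.064). Of 8 fits without 1 library, only that without HFD C passed (edgeR adjusted p = 0.0156, highest 0.153). With DESeq2 the adjusted p was 0.0542, and the authors' deposited table has the gene past the threshold. Cyp26b1 had 1.47, 2.71, 2.16 and 7.79 CPM in HFD A to D, against 7.82, 2.90, 4.30 and 7.95 CPM in CD A to D. HFD D lay just under the highest CD libraries, and the log2 change was -0.70 (95% confidence interval -1.79 to 0.39, adjusted p = 0.498).

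Of the retinoid genes listed beside them, 3 of 16 measured passed the test, 1 higher and 2 lower in HFD, and the list's median log2 change was -0.01, against 0.01 over all genes. Dhrs3, which reduces retinal, averaged 146 CPM in HFD and 217 CPM in CD livers (log2 change -0.57, adjusted p = 0.0123, edgeR). Rdh11, another retinal reductase, averaged 37.3 CPM in HFD and 81.0 CPM in CD livers (-1.12, adjusted p = 0.0121). Rdh16, a retinol dehydrogenase, averaged 113 CPM in HFD and 63.2 CPM in CD livers (0.84, adjusted p = 0.0188). The receptors Rara, Rarb and Rarg had log2 changes of 0.24, -0.30 and -0.46 and did not pass.

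In family 4, Cyp4f14 rose and Cyp4f17 fell. Cyp4f14, which hydroxylates leukotriene B4 and vitamin E in mice, had 319, 332, 351 and 356 CPM in HFD A to D, against 242, 227, 278 and 270 CPM in CD A to D. The libraries did not overlap, and the log2 change was 0.42 ± 0.10 (edgeR adjusted p = 0.0276), but it passed in 3 of 8 fits without 1 library (0.0211 to 0.0891) and missed the threshold with library totals. Cyp4f17 had 7.27, 7.54, 8.84 and 8.70 CPM in HFD A to D, against 12.9, 15.4, 12.5 and 13.3 CPM in CD A to D. Its diets lay well apart, with a log2 change of -0.74 ± 0.12 (adjusted p = 0.00397) that held in all 8 fits (-0.79 to -0.67).

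Of the 3 regions assigned to Cyp4f17 by nearest start alone, 1 passed the test, lower in HFD and far from the promoter. Whether this region acts on Cyp4f17 was not tested. The region 26586 bases upstream, at chr17:32479562-32480188 in an intron of Cyp4f39 by the authors' annotation, had 4.94, 5.39 and 5.49 CPM in HFD A, B and D, against 8.75, 10.0 and 12.6 CPM in CD A, C and D. It did not overlap between diets, its log2 change was -0.98 ± 0.19 (edgeR adjusted p = 0.000379), and it passed in all 6 fits without 1 library. The promoter region of Cyp4f17 had a log2 change of -0.12 (95% confidence interval -0.32 to 0.08, adjusted p = 0.74), and that of Cyp4f14 had 0.25 (0.02 to 0.49, adjusted p = 0.381). Cyp4v3, the mouse counterpart of the human fatty acid hydroxylase CYP4V2, had 667, 741, 747 and 647 CPM in HFD A to D, against 701, 679, 720 and 714 CPM in CD A to D. The 4 CD values lay within the HFD range, and the log2 change was -0.01 (95% confidence interval -0.21 to 0.20, adjusted p = 0.985).

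**Figure D4:**
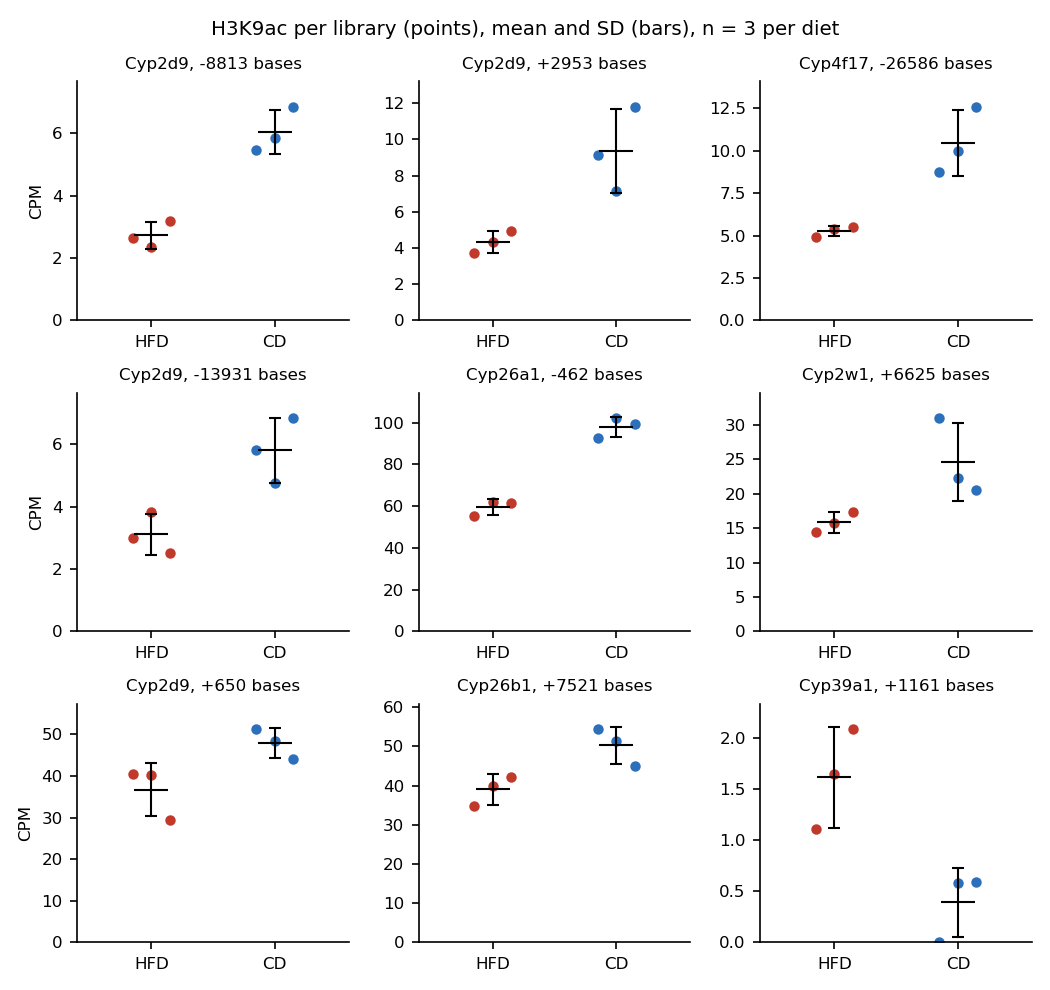
H3K9ac level in CPM (y axis, from 0) of the 9 regions past the threshold, titled by the nearest gene and the distance of the region's centre from its start. Points are libraries, HFD (red) left of CD (blue), with the mean and SD (n = 3 per diet); 8 regions were lower in HFD and the Cyp39a1 region was higher.

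Family 1 did not pass the test in RNA (0 of 3 genes) or at its 8 H3K9ac regions (0) with edgeR or DESeq2, and 1 gene and 2 regions had an unadjusted p under 0.05. Cyp1a2, which oxidises caffeine and aromatic amines and averaged 417 FPKM, had 830, 611, 667 and 572 CPM in HFD A to D, against 1068, 755, 811 and 1003 CPM in CD A to D. HFD A overlapped the lower CD libraries, and the log2 change was -0.44 (95% confidence interval -0.78 to -0.10, edgeR adjusted p = 0.124). Of 8 fits without 1 library, only that without HFD A passed (edgeR adjusted p = 0.0272, highest 0.306). Cyp1a2 also passed with library totals (edgeR adjusted p = 0.0479), but not with DESeq2 or in the authors' deposited table. Cyp1a1, induced through the aryl hydrocarbon receptor, had 1.52, 1.81, 0.823 and 0.760 CPM in HFD A to D, against 1.27, 1.79, 1.72 and 1.64 CPM in CD A to D. HFD C and D were low, and the log2 change was -0.38 (adjusted p = 0.544). Cyp1b1, found mainly outside hepatocytes, had 0.287, 0.814, 0.914 and 1.03 CPM in HFD A to D, against 0.683, 1.44, 1.10 and 0.485 CPM in CD A to D (log2 change -0.29, adjusted p = 0.782). The diets overlapped, and the sign turned in some fits with fewer libraries. Of 9 measured genes of the aryl hydrocarbon receptor list, 1 passed: the chaperone Hsp90aa1 averaged 164 CPM in HFD and 234 CPM in CD livers (log2 change -0.51, adjusted p = 0.0213).

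Among the epoxygenases of subfamily 2j, Cyp2j6 came nearest to the threshold of all uncalled members. It had 121, 120, 104 and 103 CPM in HFD A to D, against 96.1, 77.2, 92.1 and 77.3 CPM in CD A to D, with no overlap, a log2 change of 0.39 and an edgeR adjusted p of 0.0598. Cyp2j5 had 909, 934, 912 and 875 CPM in HFD A to D, against 828, 694, 806 and 707 CPM in CD A to D, also without overlap (0.26, adjusted p = 0.159). Each HFD library exceeded each CD library in both genes, yet neither passed with edgeR. Cyp2j6 passed with DESeq2 (adjusted p = 0.0182) and in the authors' deposited table, and Cyp2j5 passed in neither. Cyp2j9 had a log2 change of -0.54 with overlap (adjusted p = 0.322). On the list of eicosanoid genes 2 of 9 measured passed, both lower in HFD: the epoxide hydrolase Ephx1 averaged 245 CPM in HFD and 581 CPM in CD livers (-1.24, adjusted p = 0.00208), and the prostaglandin synthase Ptges averaged 0.365 CPM in HFD and 1.10 CPM in CD livers (-1.58, adjusted p = 0.0186). The epoxide hydrolase Ephx2 averaged 1306 CPM in HFD and 1145 CPM in CD livers and did not pass (0.19, edgeR adjusted p = 0.569).

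Cyp2r1, Cyp39a1, Cyp46a1 and Cyp21a1, which act on vitamin D, oxysterols, cholesterol and adrenal steroids, did not pass in RNA. Cyp2r1, a vitamin D 25-hydroxylase, had 18.8, 20.9, 14.1 and 19.2 CPM in HFD A to D, against 19.03, 19.8, 19.8 and 18.6 CPM in CD A to D. HFD C was low, the diets overlapped, and the log2 change was -0.08 (95% confidence interval -0.36 to 0.19, edgeR adjusted p = 0.793). Cyp24a1 and Cyp27b1, the kidney enzymes that inactivate and activate vitamin D, were not listed in the RNA table and had 1 H3K9ac region each. That of Cyp24a1 had 0.767, 1.04 and 1.98 CPM in HFD A, B and D, against 0.983, 1.33 and 0.594 CPM in CD A, C and D. That of Cyp27b1 had 1.36, 3.48 and 1.98 CPM in HFD A, B and D, against 1.34, 1.75 and 1.88 CPM in CD A, C and D. The diets overlapped in both, and neither passed (adjusted p = 0.884 and 0.667, edgeR). Cyp39a1, an oxysterol 7-alpha hydroxylase, had 36.5, 43.7, 29.1 and 45.2 CPM in HFD A to D, against 22.3, 37.7, 22.3 and 27.4 CPM in CD A to D. CD B overlapped the HFD libraries, and the log2 change was 0.49 (0.07 to 0.92, adjusted p = 0.173).

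A small intron region of Cyp39a1, 278 bases long and 1161 bases past the start, was the 1 member region that passed the test in that direction. It had 1.11, 1.65 and 2.09 CPM in HFD A, B and D, against 0, 0.583 and 0.594 CPM in CD A, C and D. These are 13, 19 and 19 reads in HFD and 0, 7 and 6 reads in CD libraries, and a count of 3 corresponds to 0.247 to 0.324 CPM. The log2 change was 1.998 ± 0.57 (edgeR adjusted p = 0.0376). The region passed in 2 of 6 fits without 1 library, and it did not pass with library totals or with DESeq2. The other Cyp39a1 region, 4041 bases past the start, had 1.70, 2.17 and 1.54 CPM in HFD A, B and D, against 0.983, 0.667 and 0.594 CPM in CD A, C and D. It showed no overlap, and its log2 change of 1.26 did not pass (95% confidence interval 0.43 to 2.10, adjusted p = 0.107). By the authors' annotation both regions also lie upstream of the gene Slc25a27. Whether they act on either gene was not tested. Cyp46a1, a cholesterol 24-hydroxylase known from neurons, had 3.62, 2.29, 1.25 and 1.73 CPM in HFD A to D, against 0.993, 1.57, 1.39 and 2.15 CPM in CD A to D. HFD A was the highest, and the log2 change was 0.54 (-0.21 to 1.29, adjusted p = 0.43). Cyp21a1, the steroid 21-hydroxylase of the adrenal gland, was at 1.08 ± 0.648 CPM in HFD and 1.14 ± 0.171 CPM in CD livers (SD, n = 4 each).

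Cyp3a25, a steroid and drug hydroxylase, had 670, 590, 579 and 433 CPM in HFD A to D, against 524, 600, 554 and 732 CPM in CD A to D. The diets overlapped, with a log2 change of -0.08 (95% confidence interval -0.42 to 0.25, edgeR adjusted p = 0.834). Cyp20a1, a P450 without an established substrate, had 5.06, 7.08, 8.68 and 9.67 CPM in HFD A to D, against 10.9, 8.29, 10.4 and 12.5 CPM in CD A to D. HFD A was the lowest, and the log2 change was -0.46 (-0.90 to -0.02, adjusted p = 0.227). The 19 members not given per library had log2 changes between -0.54 and 0.82, 9 above and 10 below 0, with a lowest adjusted p of 0.0731.

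Cyp2w1 was not listed in the RNA table, but 1 of its 5 regions passed the test. Centred 6625 bases past the start, at chr5:139357571-139360911, it had 14.4, 15.7 and 17.4 CPM in HFD A, B and D, against 31.0, 22.3 and 20.5 CPM in CD A, C and D. The libraries did not overlap, CD A was the highest, and the log2 change was -0.64 ± 0.14 (edgeR adjusted p = 0.00187). It missed the threshold without CD A (adjusted p = 0.158) and without HFD B (0.0521). The 13 genes with H3K9ac regions but not listed in the RNA table had 23 regions between 1.01 and 24.1 CPM, and the Cyp2w1 region was the 1 that passed.

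At promoters, 2 of 31 members with a region within 1000 bases of their start passed, Cyp26a1 and Cyp2d9, against 2.78% of the 12892 genes with such a region. Promoter regions ranged from 1.08 CPM to 127 CPM, and their log2 changes from -0.72 to 0.45. Of the 26 members with both values, 16 had the same sign in RNA and in the promoter mark. Across these 26 genes the 2 log2 changes had a Spearman correlation of 0.554, and 0.498 over the 25 without Cyp26a1. Genes of a cluster share sequence and are not independent, and both contrasts compare the same diets.

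**Figure D5:**
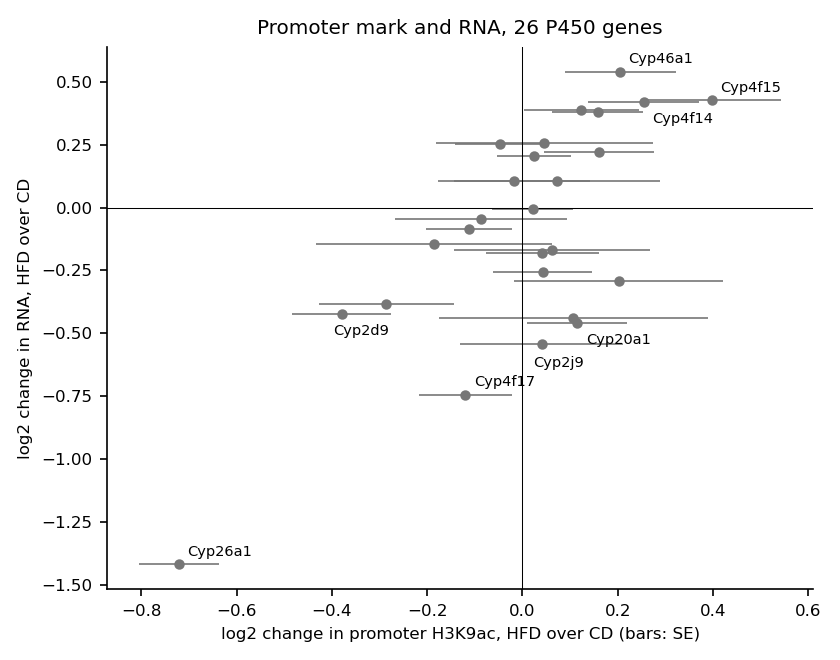
Log2 change in RNA (y axis) against log2 change in promoter H3K9ac with its SE (x axis), both HFD over CD, for the 26 members with a region within 1000 bases of their start. Cyp26a1 lies at the lower left with -0.72 in the mark and -1.42 in RNA, and most other genes lie within 0.4 of 0 in the mark.

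Promoter mark and RNA level ranked these genes differently. Across the 26, CD promoter H3K9ac and mean FPKM had a Spearman correlation of 0.151. The 2 measures are unlike: FPKM are scaled to transcript length, but the CPM of a region are not scaled to its length. Promoter regions ran from 426 bases for Cyp2j5 to 4370 bases for Cyp26a1. The part of region length in this correlation was not tested. Of the 12 members without a nearest H3K9ac region, 4 had mean levels of 93.6 to 280 FPKM: Cyp2c50, Cyp2c37, Cyp2c54 and Cyp2c68. Measured from their own start, the closest region of any gene lay 78558 bases away for Cyp2c50, 175813 for Cyp2c37, 94424 for Cyp2c54 and 74639 for Cyp2c68. Over the 12 genes these distances were 26445 to 220307 bases. Whether reads in this duplicated stretch could be placed was not tested. Cyp2d22, at 86.6 FPKM, had the highest promoter region of the members, with 128.5 CPM in HFD and 126 CPM in CD livers. That region was 3603 bases long.

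The partners of P450 enzymes did not pass the test in RNA. Of 9 redox genes 0 passed with edgeR, 1 had an unadjusted p under 0.05 and 1, Cyb5b, passed with DESeq2; their median log2 change was 0.20. Por, the reductase, averaged 209 CPM in HFD and 142 CPM in CD livers (log2 change 0.56, 95% confidence interval -0.02 to 1.13, edgeR adjusted p = 0.261). Of 12 heme genes 0 passed with edgeR or DESeq2 and 1 had an unadjusted p under 0.05, and Alas1, the rate-limiting enzyme of heme synthesis, averaged 389 CPM in HFD and 197 CPM in CD livers (0.98, adjusted p = 0.446). Of 17 measured regulators of P450 genes, 4 passed higher and 1 lower in HFD. Ppara, a fatty acid receptor, averaged 523 CPM in HFD and 264 CPM in CD livers (0.99, adjusted p = 0.00116). The other 4 belong to the clock-controlled factors that bind D-box sites: Dbp averaged 95.1 CPM in HFD and 1.003 CPM in CD livers, Tef 155 CPM in HFD and 30.5 CPM in CD livers, Hlf 79.0 CPM in HFD and 53.4 CPM in CD livers, and the repressor Nfil3 18.3 CPM in HFD and 60.5 CPM in CD livers, with adjusted p of 2.45e-05, 0.000132, 0.0266 and 6.21e-05. The part of collection time in the P450 values was not tested. On the vitamin D list 1 of 4 measured genes passed, Dhcr7, which averaged 82.3 CPM in HFD and 156 CPM in CD livers (-0.92, adjusted p = 0.0436).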

How the data were processed

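Raw counts for each gene stood beside log2 FPKM in the RNA table, per the file headers, and the H3K9ac table held raw counts for each region of 1 shared set. In both, the authors deposited their own log2 fold change with its p-value and false discovery rate. Coordinates are in mm10, the build in the submitters' processing notes; the sources used here name no aligner, peak caller or read counter. Log2 FPKM values were converted to FPKM. Blank RNA lines (4999) were left out, and 57571 H3K9ac lines gave 57499 regions. Listed genes had a mean count of 13.9 or more, so genes with fewer reads could not be tested.

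All tests were fitted on the whole tables with edgeR 4.0.16 (R 4.3.3; TMM scaling, filterByExpr, quasi-likelihood, diet as the only term), with Benjamini-Hochberg adjustment over all features and a threshold of 0.05. The script was tested on simulated data. SE is the log2 change divided by the root of F. CPM are counts scaled to TMM library sizes. Each region belonged to the gene with the nearest start, and a promoter was the region of highest mean signal within 1000 bases. Intervals have a 95% confidence level, and a floor of 3 counts covers counting error only. No libraries agreed within sampling noise (lowest chi-square per degree of freedom 1.49). The 3 libraries without columns (CD input and open chromatin) were not analysed here.

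The members and gene lists were chosen with earlier results of these data known. Values are given per library for each member past the RNA threshold, the 6 with the highest FPKM, those with a changed region, the 2 uncalled members with the lowest adjusted p, and a set list of 16 enzymes, of which 14 were in the RNA table and Cyp24a1 and Cyp27b1 had H3K9ac regions only. Alternatives were other scalings, DESeq2 1.42.0, 2 filters, each replicate left out, the replicate block, promoter windows of 500 and 2500 bases, the authors' deposited calls and, chosen after seeing the data, leaving out HFD A and HFD B.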

Additional observations from a re-analysis of the deposited data

Results flagged for a closer look

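Cyp2a22 in CD D, at 0.698 CPM, lay far above the other CD libraries, which had 0.213 to 0.267 CPM. The gap took 0.889 of the range of the 4 CD values, above Dixon's 95% critical value, and it was the 1 such value in 52 groups tested, where chance gives about 1 in 20. All HFD libraries were higher still, and without CD D the log2 change of Cyp2a22 was 3.23.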

How the results depend on the processing

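The count of members past the RNA threshold was 8, against 12 in the authors' deposited table. It was 13 with DESeq2, which added Cyp2c38, Cyp2c50, Cyp2c54, Cyp2d9 and Cyp2j6. It was 4 when only genes at or above the median level were tested, which left 28 of the 45. Of the 8, only Cyp2c37 and Cyp4f14 were still tested there. Both passed, and Cyp2c50 and Cyp2c54 were added. Without each replicate in turn the count was 4 to 11, with 4 genes in every fit (Cyp2c40, Cyp2c69, Cyp4f17, Cyp2a22). The count of 9 member regions became 5 with DESeq2 and 5 to 8 without each replicate, with 4 regions in every fit. The 2 member promoters became 1 with library totals, with DESeq2, with the median filter and within 500 bases, and 1 to 2 without each replicate. Within 2500 bases the count was 3. Where no construction shows the cause, it was not tested. Without HFD A and HFD B, 10 RNA members passed and the members' log2 changes moved by a median of -0.15.

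The replicate letters did not pair the libraries: same-letter deviations had correlations of -0.222 to 0.295 in RNA and 0.081 to 0.09 in H3K9ac. With the replicate block, 9 RNA members passed, 7 of them shared: Cyp26a1 (adjusted p = 0.0418, edgeR) and Cyp39a1 (0.0457) were added and Cyp2c53-ps (0.0634) was not among them. The same 9 regions and 2 promoters passed.

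Signs of some genes far from the threshold turned. Without HFD A and HFD B the log2 change was -0.0885 for Cyp2a12, 0.0428 for Cyp1b1 and -0.052 for Cyp46a1. Leaving out 1 library gave -0.503 to 0.0067 for Cyp1b1 (above 0 without CD B), -0.166 to 0.0223 for Cyp2r1 (above 0 without HFD C), -0.186 to 0.0257 for Cyp3a25 (above 0 without HFD D or CD D) and -0.0432 to 0.0297 for Cyp4v3 (above 0 without HFD A, HFD D, CD C or CD D). Low counts limit the 38 of 122 regions under 2 CPM, and reads of genes similar in sequence could be shared.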
